A study of Mus musculus with 6 samples.

Results

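The genes described here are 8 genes of antigen presentation by major histocompatibility complex (MHC) class II: the chains of the peptide-presenting molecules (H2-Aa, H2-Ab1 and H2-Eb1), the chains of the peptide editors (H2-DMa, H2-DMb1, H2-DMb2 and H2-Oa) and the transactivator Ciita. They were chosen by symbol, each matched exactly 1 row of the deposited table of 56980 genes by its Ensembl ID, and all 8 passed the filter on low values (at least 3 libraries with a TPM of 1 or more), which left 14776 genes. RNA was measured in tumor-associated macrophages (TAMs) from female mice, obtained at 6 to 8 weeks of age, that carried intraperitoneal tumors of ID8, a mouse ovarian cancer cell line. Tumors were collected 2 months after injection, and live CD45+ CD11b+ Ly6G- F4/80+ cells were sorted. The 2 groups were WT C57BL/6 mice and C5aR-/- mice on the same background, which lack the receptor for complement C5a, with 3 libraries in each group. Mice of both groups carried the same tumor line, there was no tumor-free group, and the knockout affected all cell types, not macrophages alone. Nothing in the labels says that each library came from a separate mouse, and the figure legends give more mice per group than there are libraries here, so the p-values measure the spread between these libraries. The question put to these genes was whether their RNA differed between C5aR-/- and WT TAMs.

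MHC class II molecules present peptides from ingested proteins to CD4+ T cells. An alpha and a beta chain assemble on the invariant chain in the endoplasmic reticulum, endosomal proteases trim that chain to a short peptide, H2-DM exchanges the peptide for others, and H2-O restrains H2-DM. Transcription of the chains depends on CIITA, a coactivator without DNA binding of its own that joins factors on the X and Y boxes of the promoters. Interferon-gamma induces Ciita in macrophages, in part through IRF1, whereas dendritic cells and B cells express Ciita constitutively.

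Of the 8 genes, 7 lie in the class II region of chromosome 17 and Ciita lies on chromosome 16 (GRCm38, the build that the submitters list as mm10; gene bounds from GENCODE M21). H2-Oa (chr17:34092340-34095234, plus strand) is followed by H2-DMa (chr17:34119541-34139101, plus), H2-DMb2 (chr17:34143307-34151555, plus), H2-DMb1 (chr17:34153072-34160230, plus), H2-Ab1 (chr17:34257689-34269419, plus), H2-Aa (chr17:34282744-34287823, minus) and H2-Eb1 (chr17:34305867-34316674, plus). Ciita covers chr16:10480059-10528418 on the plus strand. The libraries kept strand, but whether the authors' quantification used it is not stated, and H2-DMa overlaps Brd2 on the other strand (mean TPM 188), Ciita overlaps Dexi (15.0) and H2-Eb1 overlaps Gm20513 (3.34).

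The promoters of these genes are shown because they carry the sequence through which the class II genes are known to be driven together. RefSeq promoters (250 bases before to 50 after the start, GRCm38.p6) were given for 6 of the 8 genes, and were searched on both strands for CNNNNAAC, the letters of an X box, followed after 23 to 26 bases by TGATTGG, a Y box. This pair was found upstream of H2-Aa, H2-Eb1, H2-DMb1, H2-DMb2 and H2-Oa, 5 of the 6 genes, and also upstream of H2-Ob and H2-Eb2, but in neither of the 2 promoters listed for H2-DMa. It occurred in 43 of 32851 promoters (0.131%), of which 7 belonged to class II genes, whereas the Y box letters alone occurred in 2568 (7.82%). The spacing was set with these promoters in view, so the match is a description of them. Each line gives the 120 bases from 140 to 21 before the start, 5′ to 3′ on the gene's strand, with the X box and then the Y box in capitals.
H2-Aa (chr17:34287844-34287963, minus): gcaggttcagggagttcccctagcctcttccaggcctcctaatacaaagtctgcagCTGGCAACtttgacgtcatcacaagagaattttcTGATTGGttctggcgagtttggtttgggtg
H2-Eb1 (chr17:34305727-34305846, plus): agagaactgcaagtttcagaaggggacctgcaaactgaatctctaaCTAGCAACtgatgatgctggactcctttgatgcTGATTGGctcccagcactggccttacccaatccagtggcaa
H2-DMb1 (chr17:34153051-34153170, plus): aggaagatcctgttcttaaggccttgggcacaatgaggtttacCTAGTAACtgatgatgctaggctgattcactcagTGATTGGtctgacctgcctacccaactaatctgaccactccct
H2-DMb2 (chr17:34145109-34145228, plus): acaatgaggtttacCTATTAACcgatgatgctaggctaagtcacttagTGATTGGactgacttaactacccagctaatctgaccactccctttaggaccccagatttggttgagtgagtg
H2-Oa (chr17:34092239-34092358, plus): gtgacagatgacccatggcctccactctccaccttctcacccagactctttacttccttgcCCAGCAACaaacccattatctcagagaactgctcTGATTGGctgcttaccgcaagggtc
H2-Ob (chr17:34238765-34238884, plus): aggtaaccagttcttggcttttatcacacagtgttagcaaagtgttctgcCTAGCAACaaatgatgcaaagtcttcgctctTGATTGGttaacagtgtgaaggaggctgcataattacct

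In the 6 promoters printed, the X box began 79 (H2-Oa) to 126 (H2-DMb2) bases before the start and the Y box 45 to 92 bases before it. H2-Oa and H2-Ob, whose levels followed another pattern across the libraries than the classical chains, hold the same pair of boxes.

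All values are TPM, which is scaled to gene length and to the total of the library, so that levels can be compared between genes, while sequencing depth is unknown. Differences are C5aR-/- minus WT on the scale log2(TPM + 1), from limma fitted over all tested genes with Benjamini-Hochberg adjustment. C5ar1, the targeted gene, lay between 16.2 and 86.5 in the WT libraries and between 0.05 and 0.38 in the C5aR-/- libraries, with no overlap (log2 difference -5.04, interval -6.38 to -3.71, adjusted p = 0.0666 from limma). Markers were abundant for macrophages and also for other cells: Adgre1, which encodes F4/80, ranged from 25.4 to 114, the sum of 12 macrophage markers from 2671 to 9392, that of 10 epithelial and mesothelial markers from 2343 to 3093, and that of 10 B cell markers from 18.0 to 239.5. In such sorted bulk samples, fewer cells of a type and less RNA per cell cannot be told apart.

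None of the 8 class II genes differed between C5aR-/- and WT TAMs past a threshold. With a fold change of 2 or more required beside an adjusted p under 0.05, 0 of 8 were called, and so were 0 of all 14776 genes (0%). With that fold change beside an unadjusted p under 0.05, 0 of 8 were called, against 4.96% of all tested genes, and whatever the fold change 0 of 8 had an unadjusted p under 0.05, against 14.4%. The 2 groups overlapped in every one of the 8 genes, beside 21.3% of all genes in which they did not overlap. Most of the 8 genes vary together across the libraries, so these counts are not separate observations and do not set the 8 genes apart. The difference was above 0 for 5 genes and below 0 for 3, with a median of 0.07 beside -0.05 over all genes, and the sign turned under quantile normalization for H2-Aa and H2-DMb1 and under median-of-ratios scaling for H2-DMb1 and Ciita. All 8 intervals included 0, with lower bounds from -1.42 (Ciita) to -0.41 (H2-Ab1) and upper bounds from 0.59 (H2-DMb2) to 1.36 (Ciita).

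**Figure D1:**
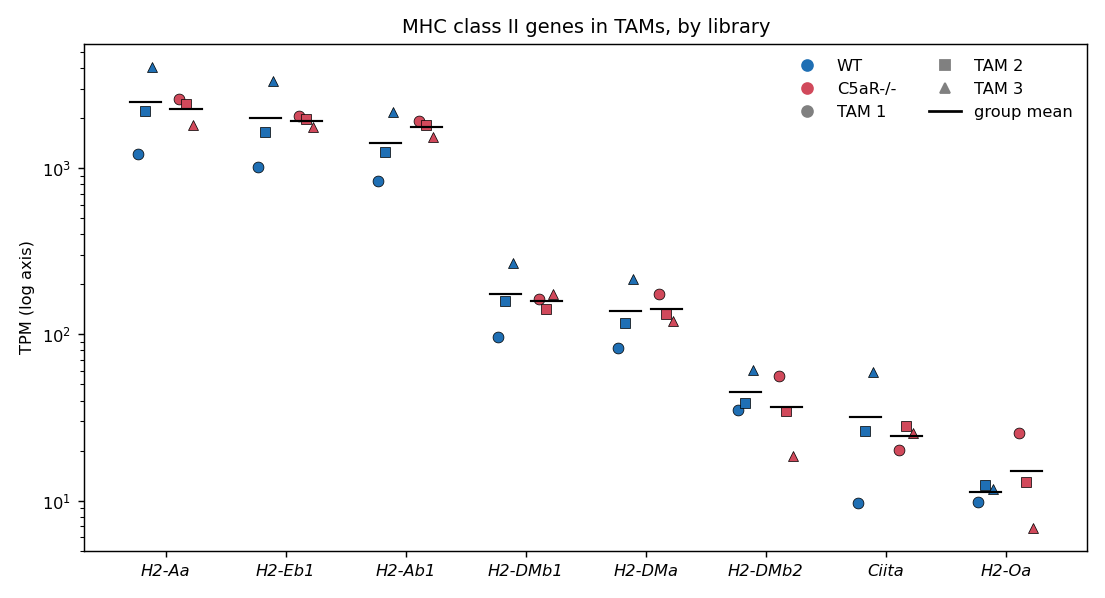
TPM of each class II gene on a log axis in the 3 WT (blue) and 3 C5aR-/- (red) TAM libraries, with the group mean as a line and the library number as the symbol; genes are in order of mean TPM. The groups overlapped in all 8 genes, and for 6 of them the 3 C5aR-/- points lie between the lowest and the highest WT point.

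The classical chains were the most abundant of the 8 genes. H2-Aa, the alpha chain of I-A, stood at 1221 TPM in WT TAM 1, 2198 in WT TAM 2 and 4063 in WT TAM 3, and at 2604, 2425 and 1822 in C5aR-/- TAMs 1, 2 and 3. WT TAM 1 was the lowest and WT TAM 3 the highest of the 6 libraries, with a 3.33-fold range in WT and a 1.43-fold range in C5aR-/- TAMs. The group means of 2494 ± 1444 and 2284 ± 409.8 (SD, n = 3 each) gave a log2 difference of 0.03 (standard error 0.43, 95% interval -1.01 to 1.06, adjusted p = 0.984 from limma).

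H2-Ab1, the beta chain of I-A, showed the largest positive difference of the 8 genes. Its TPM was 837.4, 1244 and 2181 in WT and 1931, 1829 and 1546 in C5aR-/- TAMs, so that each C5aR-/- library lay above WT TAMs 1 and 2 and below WT TAM 3. The log2 difference was 0.42 (standard error 0.35, interval -0.41 to 1.25, adjusted p = 0.623 from limma). Without WT TAM 3 it was 0.79, with an unadjusted p of 0.0224 and an adjusted p of 0.364, and without WT TAM 1 it was 0.10.

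H2-Eb1, the beta chain of I-E, had a TPM of 1018, 1648 and 3341 in WT and of 2048, 1964 and 1761 in C5aR-/- TAMs. Here too the C5aR-/- libraries stood close together, within 1.16-fold, between WT TAM 2 and WT TAM 3. The difference was 0.11 (standard error 0.42, interval -0.88 to 1.10, adjusted p = 0.925 from limma). The partner alpha chain of I-E had a row only as the pseudogene H2-Ea-ps, which was listed at 0 in all 6 libraries. C57BL/6 mice are known to carry an inactive H2-Ea gene.

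The chains of I-A did not stand in a fixed ratio. H2-Aa exceeded H2-Ab1 by 1.46-, 1.77- and 1.86-fold in WT and by 1.35-, 1.33- and 1.18-fold in C5aR-/- TAMs, so that every WT ratio was above every C5aR-/- ratio. This ratio was picked out after its values were seen and was not tested. H2-Eb1 relative to H2-Aa ranged from 0.75 to 0.967.

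H2-DM, the editor that removes the invariant chain peptide, is built of H2-DMa and either of the beta chains H2-DMb1 and H2-DMb2. H2-DMa had a TPM of 83.0, 116.6 and 215.2 in WT and of 174.2, 132.6 and 120.0 in C5aR-/- TAMs, a log2 difference of 0.14 (interval -0.69 to 0.97, adjusted p = 0.890 from limma). For H2-DMb1 the values were 96.9, 158.8 and 268.2 in WT and 162.5, 142.6 and 174.2 in C5aR-/- TAMs, a difference of -0.01 (interval -0.84 to 0.82, adjusted p = 0.991). Both genes had the order of the classical chains in WT, lowest in TAM 1 and highest in TAM 3, and in both the C5aR-/- libraries fell inside the WT range.

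H2-DMb2 had the same order in WT but stood apart in C5aR-/- TAMs. Its TPM was 34.98, 38.8 and 61.2 in WT and 55.9, 34.7 and 18.5 in C5aR-/- TAMs, a difference of -0.39 (standard error 0.41, interval -1.36 to 0.59, adjusted p = 0.705 from limma). The lowest library was C5aR-/- TAM 3, not WT TAM 1, and H2-DMb2 was 0.361-fold of H2-DMb1 in WT TAM 1 but 0.106-fold in C5aR-/- TAM 3. The division of reads between the 2 beta chains is uncertain, since their transcripts were 88.7% identical over 1217 aligned bases and 5.74% of the 150-base stretches of H2-DMb1 also occurred in H2-DMb2. No other pair of the 8 genes shared a stretch of 50 bases.

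H2-Oa, the alpha chain of the H2-DM inhibitor H2-O, had the lowest mean TPM of the 8 genes. It was nearly level in WT TAMs (9.82, 12.4 and 11.8) and spread 3.73-fold in C5aR-/- TAMs (25.6, 12.9 and 6.85), so that the WT libraries lay inside the C5aR-/- range, the reverse of the classical chains. The difference was 0.22 (interval -0.79 to 1.23, adjusted p = 0.851 from limma), and without C5aR-/- TAM 1 it was -0.23.

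H2-Ob, the beta chain of H2-O, was not one of the 8 genes but its partner. Its TPM was 29.0, 35.3 and 17.9 in WT and 55.8, 20.9 and 8.93 in C5aR-/- TAMs, highest in C5aR-/- TAM 1 and lowest in C5aR-/- TAM 3 like H2-Oa. H2-Ob ordered the 6 libraries exactly as the summed TPM of 10 B cell markers did, which was 188, 225 and 45.7 in WT and 239.5, 80.2 and 18.0 in C5aR-/- TAMs. H2-Oa shared with that sum the highest and the lowest library but not the order in WT. B cells are known to express H2-O, and the part of the B cell markers in these values was not tested.

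Ciita, the transactivator, had the widest range in WT TAMs of the 8 genes. Its TPM was 9.65, 26.2 and 59.5 in WT TAMs, a 6.17-fold range, and 20.3, 28.0 and 25.6 in C5aR-/- TAMs, a 1.38-fold range. WT TAM 1 and WT TAM 3 were again the extremes. The difference was -0.03 (standard error 0.58, interval -1.42 to 1.36, adjusted p = 0.985 from limma), the widest interval of the 8 genes.

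In order of mean TPM over the 6 libraries, H2-Aa (2389) was followed by H2-Eb1 (1963), H2-Ab1 (1595), H2-DMb1 (167.2), H2-DMa (140.2), H2-DMb2 (40.7), Ciita (28.2) and H2-Oa (13.2). The first 3 neighbors and the step from H2-DMa to H2-DMb2 kept their order in 6 of 6 libraries. H2-DMb1 exceeded H2-DMa and H2-DMb2 exceeded Ciita in 5 of 6, and Ciita exceeded H2-Oa in 4 of 6. The order of these neighbors was thus not the same in every library, and it was not tested.

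The feature that most of these genes shared was a wide spread among WT TAMs. Among the 8 genes, 6 had a wider log2 range in WT than in C5aR-/- TAMs, whereas this held for 34.6% of all tested genes. The WT range was 2.51 for Ciita, wider than in 98.5% of tested genes, and 1.73 for H2-Aa (96.1%) and 1.71 for H2-Eb1 (95.9%), beside a median of 0.40 over all genes. The C5aR-/- range was 0.22 for H2-Eb1 and 0.32 for H2-Ab1, beside a median of 0.57. H2-DMb2 (1.54) and H2-Oa (1.76) had the widest C5aR-/- ranges of the 8. For 6 of the 8 genes the C5aR-/- libraries lay wholly inside the WT range, which was so for 8.55% of tested genes. These 6 genes vary together across the same libraries and are not separate observations of the spread.

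**Figure D2:**
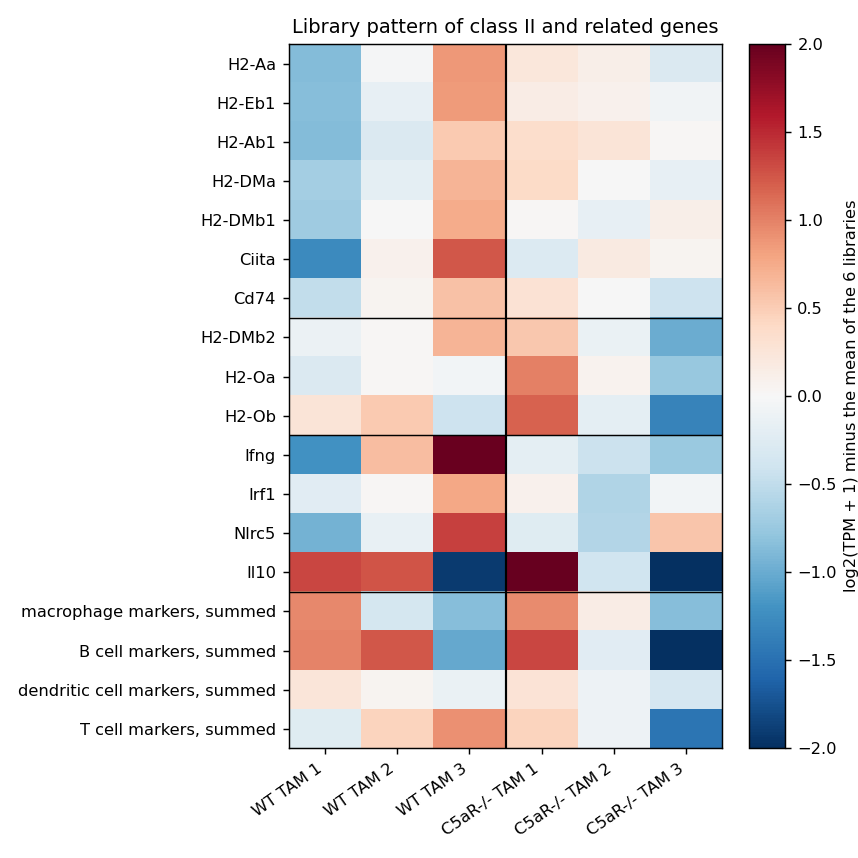
Heat map of log2(TPM + 1) in each library minus the mean of the 6 libraries, for class II genes, interferon-related genes and summed cell type markers; colors are capped at -2 and 2. WT TAM 1 is low and WT TAM 3 high for H2-Aa, H2-Eb1, H2-Ab1, H2-DMa, H2-DMb1, Ciita and Cd74, whereas H2-Oa and H2-Ob are highest in C5aR-/- TAM 1 and lowest in C5aR-/- TAM 3.

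For H2-Aa, H2-Ab1, H2-Eb1, H2-DMa, H2-DMb1 and Ciita, the difference moved furthest when WT TAM 1 or WT TAM 3, the extremes, was left out. Without WT TAM 1, the log2 difference was -0.41 for H2-Aa, -0.29 for H2-Eb1, -0.17 for H2-DMa, -0.37 for H2-DMb1 and -0.68 for Ciita. Without WT TAM 3, it was 0.46, 0.57, 0.51, 0.36 and 0.58 for the same genes. The sign also turned for some of them without a C5aR-/- library. H2-Aa was -0.08 without C5aR-/- TAM 1 and -0.03 without C5aR-/- TAM 2. H2-DMa was -0.02 and Ciita 0.095 without C5aR-/- TAM 1, and H2-DMb1 was 0.07 without C5aR-/- TAM 2. H2-DMb2 and H2-Oa moved furthest instead without C5aR-/- TAM 1 or 3, and H2-DMb2 was -0.76 without the first and 0.01 without the third. H2-Ab1 alone stayed above 0 with each library left out, and 0 of 8 genes were called with any library left out. The median of the 8 differences was -0.33 without WT TAM 1 and 0.49 without WT TAM 3.

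**Figure D3:**
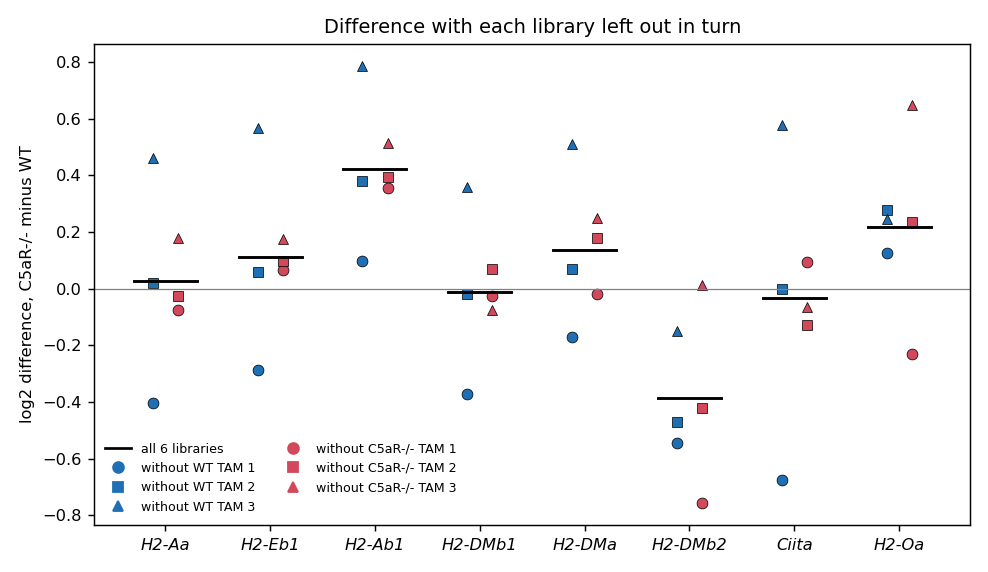
Difference of log2(TPM + 1), C5aR-/- minus WT, for each class II gene with all 6 libraries (line) and with each library left out in turn (symbols). Leaving out WT TAM 1 (blue circle) gave the lowest value and leaving out WT TAM 3 (blue triangle) the highest for H2-Aa, H2-Eb1, H2-Ab1, H2-DMb1, H2-DMa and Ciita.

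The levels of other genes are given for the same libraries. Ifng, which encodes interferon-gamma, had a TPM of 1.10, 6.43 and 18.1 in WT and of 3.25, 2.60 and 1.90 in C5aR-/- TAMs, and Irf1 had 106.3, 126.3 and 212.3 beside 131.6, 81.3 and 119.3. Both were highest in WT TAM 3, as were H2-Aa, H2-Ab1, H2-Eb1, the 3 H2-DM chains and Ciita, but not H2-Oa or H2-Ob. Nlrc5, the regulator of MHC class I, was also highest there (114.8) and lowest in WT TAM 1 (22.4). Of the other cytokine control genes with a mean TPM of at least 5, Ifngr2 was highest in WT TAM 3. Irf8, Ifngr1, Jak1 and Il10 were highest in C5aR-/- TAM 1, and Jak2 was highest in WT TAM 2. How many of all genes were highest in WT TAM 3 was not counted, and a link of these genes to the class II levels was not tested. The differences of Ifng (-0.92), Irf1 (-0.38) and Nlrc5 (-0.18) did not pass the test (adjusted p = 0.618, 0.603 and 0.915 from limma). Ifng rested on the WT extremes, with -1.75 without WT TAM 1 (unadjusted p = 0.00962, adjusted p = 0.296 from limma) and -0.16 without WT TAM 3.

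Cell markers differed between the same libraries. The 12 macrophage markers summed to 9392, 3803 and 2683 in WT and to 9320, 5339 and 2671 in C5aR-/- TAMs, an order opposite to that of H2-Aa in WT and the same as that of H2-Aa in C5aR-/- TAMs. The TPM of H2-Aa per TPM of Adgre1 was thus 10.7, 48.1 and 160.0 in WT and 28.6, 60.5 and 65.2 in C5aR-/- TAMs. T cell markers, a list of 8, summed to 59.0, 95.9 and 131.8 in WT and to 95.3, 64.8 and 24.8 in C5aR-/- TAMs. Within each group this was the order of Ifng and H2-Aa. Of the list, Cd2 alone fell from TAM 1 to TAM 3 in WT (27.5, 22.9 and 16.1). In C5aR-/- TAMs, Cd4 (5.22, 17.75 and 1.24) and Cd8a (4.56, 2.15 and 2.27) did not have the order of the sum. That C5aR-/- order was not particular to T cells, since the macrophage, dendritic cell and B cell sums fell in the same way. The 12 dendritic cell markers summed to 178, 156.7 and 136.3 in WT and to 182.5, 139.4 and 118.6 in C5aR-/- TAMs, a narrower spread. Cd24a made up most of this sum in WT (110.0, 87.4 and 69.2). Within WT, Flt3 (2.35, 2.94 and 3.95), Clec9a (1.90, 3.48 and 5.17) and Itgax (4.26, 5.92 and 13.8) rose from TAM 1 to TAM 3. Xcr1 and Siglech also rose, as H2-Aa did. Cd209a (11.1, 5.45 and 3.45) fell as Cd24a did, Ccr7 and Irf4 were also lowest in WT TAM 3, and Zbtb46, Batf3 and Kmo had neither order. Over the 6 libraries, Itgax was highest in C5aR-/- TAM 3, Clec9a was highest in C5aR-/- TAM 2 and Flt3 was lowest in C5aR-/- TAM 3. None of the dendritic cell, B cell, T cell or macrophage markers was at 0 in any library, and the part of these cells in the class II values was not tested.

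Counted as lists, 0 of 12 macrophage markers, 0 of 11 tested dendritic cell markers and 0 of 10 B cell markers were called at the unadjusted threshold, against 4.96% of all genes. For T cells 1 of 8 was called, Cd2, which was lower in C5aR-/- TAMs. For the epithelial and mesothelial list 2 of 10 were called, Upk3b and Lrrn4, also lower. Both counts stand against 2.84% of all genes called lower. In the latter list Msln (0.88, unadjusted p = 0.000587, adjusted p = 0.0922 from limma) and Krt8 (0.62, unadjusted p = 0.00294, adjusted p = 0.14 from limma) were higher, under the fold change of 2. Groups did not overlap in 4 of its 10 genes, 2 higher (against 8.84% of all genes) and 2 lower (against 12.5%). Median log2 differences were 0.47, 0.03, -0.46, -0.36 and -0.21 for the macrophage, dendritic cell, B cell, T cell and epithelial and mesothelial lists.

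**Figure D4:**
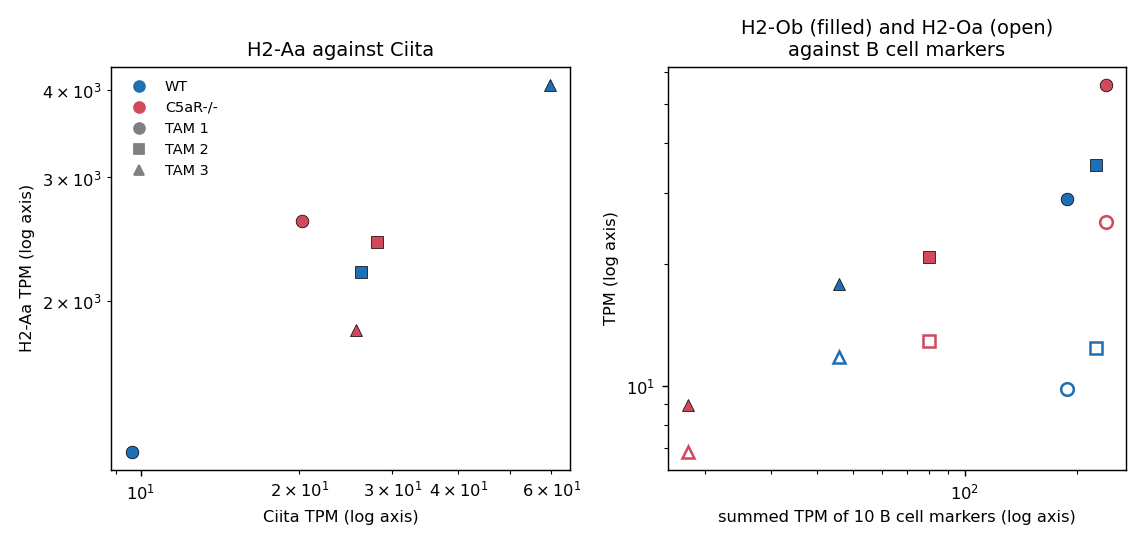
Left, TPM of H2-Aa against TPM of Ciita; right, TPM of H2-Ob (filled) and H2-Oa (open) against the summed TPM of 10 B cell markers, all on log axes, with color for the group and symbol for the library number. H2-Aa is lowest at the lowest Ciita (WT TAM 1) and highest at the highest (WT TAM 3), and H2-Ob orders the libraries as the B cell markers do.

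Over the 6 libraries, H2-Aa and H2-Eb1 had the highest correlation of log2(TPM + 1) among the class II genes (Pearson r 0.98). Ciita correlated with H2-DMb1 (r 0.95), H2-Eb1 (0.94) and H2-Aa (0.91), but not with H2-Oa (0.00). H2-Oa and H2-DMb2 correlated with each other (0.75). TPM per Ciita TPM of H2-Aa ranged from 68.2 to 129. From the lowest to the highest library H2-Aa spanned 3.33-fold, beside 6.17-fold for Ciita. These correlations describe 6 libraries that share the scaling of TPM to a library total, and no test was made of them.

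Among 10492 protein-coding genes with a mean TPM of at least 5, the genes outside the 8 whose levels were most like the mean of the classical chains over the 6 libraries were Arhgef10 (r 0.995), Plxnd1 (0.986), Stx17 (0.983), Pecr (0.981), Mbip (0.979), Top3a (0.978), Cd2bp2 (0.976) and Rgs11 (0.972). Plxnd1 had a TPM of 16.3, 23.7 and 36.7 in WT and of 27.8, 29.6 and 22.6 in C5aR-/- TAMs. In the same ranking H2-DMa stood at 0.971, Ciita at 0.912, H2-DMb1 at 0.909 and Cd74 at 0.880, whereas H2-DMb2 stood at 0.516 and H2-Oa at 0.353. The ranking covers 6 libraries, which share the scaling to a total, and was given no test.

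The other genes of the pathway were described from a list of 35 genes, of which 34 were tested and H2-Ea-ps was not. At the unadjusted threshold 1 of 34 was called (Lgmn, higher), against 2.13% of all genes called higher and 2.84% called lower, and 0 were called at the adjusted threshold. Groups did not overlap in 4 of 34 genes, higher for Lgmn and Cd9 (against 8.84% of all genes) and lower for Nfya and Creb1 (against 12.5%). The median difference of the list was -0.14.

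Other class II chains gave 0 genes above and 3 below 0. Cd74, the invariant chain, was more abundant than any of the 8 genes, with 2694, 3899 and 5661 in WT and 4588, 3741 and 2815 in C5aR-/- TAMs, a log2 difference of -0.10 (interval -0.90 to 0.70, adjusted p = 0.919 from limma). Cd74 had the WT order of the classical chains. Per TPM of H2-Ab1, Cd74 stood at 3.22, 3.13 and 2.60 in WT and at 2.38, 2.05 and 1.82 in C5aR-/- TAMs, a ratio picked out after its values were seen. H2-Eb2 was low, between 2.30 and 9.76 in the 6 libraries.

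Endosomal processing genes were the group with most values above 0, 6 of 7 beside 44.5% of all genes, with a median of 0.46. The macrophage markers had a median of 0.47. With the macrophage index as covariate the difference was 0.21 for Ctsb, 0.12 for Ctsd, 0.08 for Ctsl and 0.30 for Ifi30. Under that covariate Ctss had 0.69, Lgmn 1.09 and Sppl2a -0.66. The part of the macrophage markers in these differences was not tested. Lgmn, the asparagine endopeptidase legumain that opens the invariant chain, had a TPM of 247.8, 184.2 and 142.6 in WT and of 645.6, 390.9 and 354.9 in C5aR-/- TAMs, so that every C5aR-/- library was higher. Its difference was 1.26 (standard error 0.29, interval 0.56 to 1.95) with an unadjusted p of 0.00395 and an adjusted p of 0.157 from limma, and without C5aR-/- TAM 1 it was 0.99, under the fold change of 2. Ctss, the cathepsin that makes the last cuts in the invariant chain, had 611.0, 341.3 and 427.3 in WT and 1050, 834.2 and 589.8 in C5aR-/- TAMs, a difference of 0.84 (interval 0.15 to 1.54, unadjusted p = 0.0239, adjusted p = 0.276 from limma). For Ctss the highest WT library exceeded the lowest C5aR-/- library.

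The other processing genes were spread more than they differed. Ctsb (0.47), Ctsd (0.45), Ctsl (0.17) and Ifi30, the thiol reductase of endosomes (0.46), had positive differences, and Sppl2a, which cleaves the remaining stub of the invariant chain, had -0.54, and the groups overlapped in all 5. Ctsb and Ctsd were highest in TAM 1 and lowest in TAM 3 of both groups, which was the order of the macrophage markers in both groups and that of the classical chains in C5aR-/- TAMs but not in WT.

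Genes of the DNA-bound complex that CIITA joins differed little, with 3 above and 4 below 0. Nfya, a Y box subunit, had a TPM of 37.3, 42.5 and 39.6 in WT and of 28.6, 34.8 and 31.2 in C5aR-/- TAMs, a difference of -0.33 (interval -0.65 to -0.01, unadjusted p = 0.0473, adjusted p = 0.340 from limma). Its partners Nfyb (0.03) and Nfyc (0.05) were near 0. Of the X box factors, Rfx5 had -0.23, Rfxap 0.18 and Rfxank -0.41, and Creb1 had -0.14.

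Cytokine control genes had 3 values above and 7 below 0, with a median of -0.31, and 0 of 10 were called at the unadjusted threshold, against 4.96% of all genes. Il10, which restrains class II in macrophages, had 71.6, 68.0 and 6.67 in WT and 116.3, 20.8 and 4.91 in C5aR-/- TAMs, with the widest interval of the list (-3.49 to 2.60). It was lowest in C5aR-/- TAM 3 and WT TAM 3. The costimulators Cd80 (-0.14), Cd86 (-0.15) and Cd40 (-0.22) all had differences near 0 with overlapping groups.

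Surface turnover and tetraspanin genes were even, with 2 above and 2 below 0. March1, the ubiquitin ligase that removes class II from the surface, had 0.20 and March8 -0.21. Cd9, a tetraspanin, had 444.1, 417.8 and 437.2 in WT and 490.5, 613.2 and 590.5 in C5aR-/- TAMs. Its difference was 0.38 (unadjusted p = 0.0317, adjusted p = 0.302 from limma), and Cd81 had -0.10. Unlike the summed macrophage markers, Cd9 did not fall with the library number in either group.

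**Figure D5:**
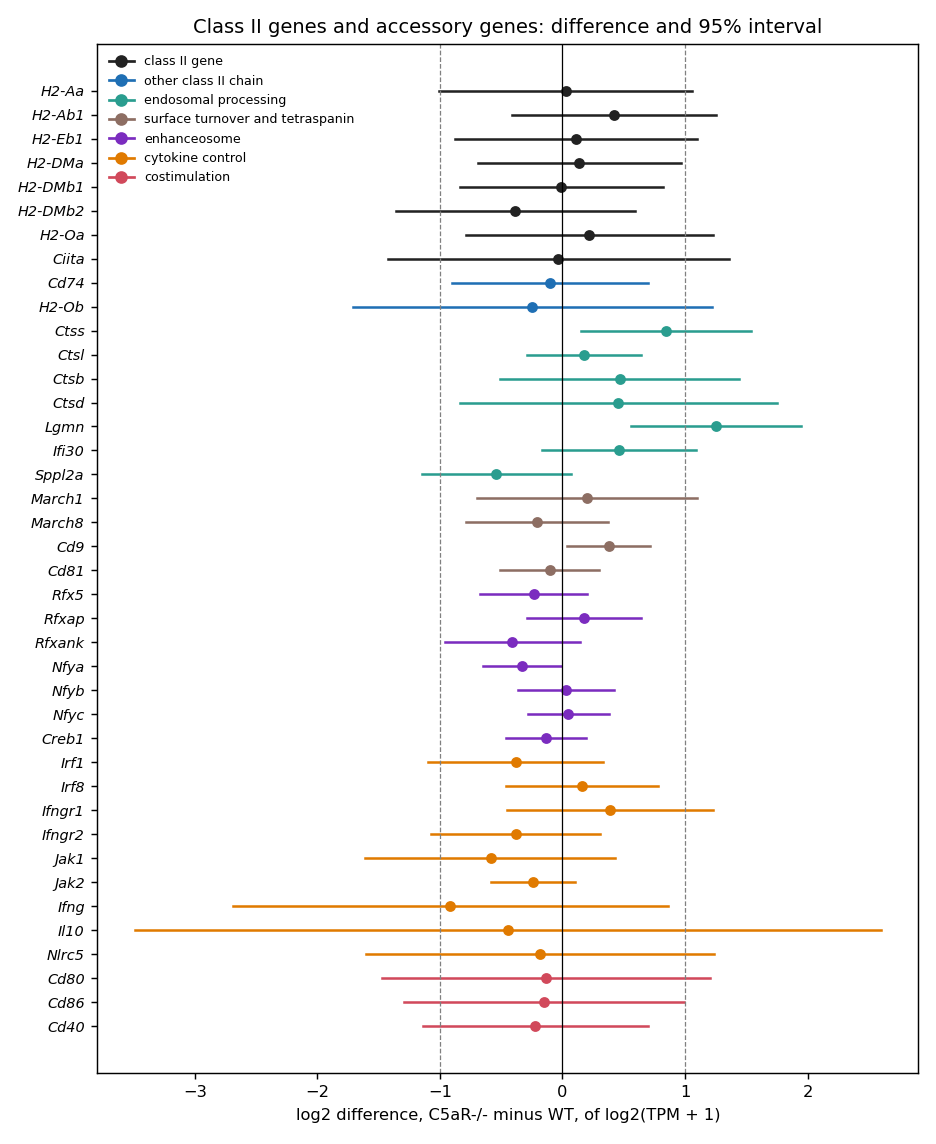
Difference of log2(TPM + 1), C5aR-/- minus WT, with its 95% interval from limma, for the 8 class II genes and the 32 accessory genes with a mean TPM of at least 5, colored by role; dashed lines mark a fold change of 2. The intervals of all 8 class II genes include 0, and Lgmn lies past the line at a log2 difference of 1.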

How the data were processed

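RNA of sorted TAMs was measured in 3 WT and 3 C5aR-/- libraries, grouped by the sample labels. Per the study's methods the authors used fastp to trim paired 150-base reads, HISAT2 to align them and StringTie to estimate expression. The submitters' processing notes also list RSEM, DESeq2 and mm10, with no role or order, and versions and the annotation release are not given in the sources used here. The deposited values are TPM per gene, while the methods name FPKM. TPM keeps no depth, so the depth behind each value, and with it the counting error, is unknown, and the edgeR and DESeq2 calls named in the methods need read counts and were not run. Of 56980 genes, 52073 were matched to a symbol (GENCODE M21), and 28003 were listed at 0 in all 6 libraries and not tested. The 2 columns of the authors' group means were not used.

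The 14776 genes with 3 or more libraries at a TPM of 1 or more were tested on log2(TPM + 1), a scale that understates the change of low genes, with limma 3.58.1 in R 4.3.3 (lmFit, eBayes with trend, Benjamini-Hochberg adjustment), after the script was tested on simulated data. Tables were made with numpy 2.4.6 and pandas 2.3.3 under Python 3.11.15. Named genes are the 8 class II genes, C5ar1, accessory genes with a mean TPM of at least 5, cell type markers and the 8 nonmember genes most like the classical chains. H2-Eb2, H2-Ea-ps and the genes that overlap a class II gene were named beside this rule. One gene of the accessory list is not reported here and is left out of the list's counts. The members and lists were chosen with earlier results of these data known. The alternatives tried were leaving out each library, a macrophage index (the mean log2(TPM + 1) of the 12 macrophage markers) as covariate, eBayes without trend, a block for the replicate number, median-of-ratios scaling, quantile normalization, a filter at a TPM of 5 or none, and a pseudocount of 0.1. Promoters are from RefSeq (GRCm38.p6).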

Additional observations from a re-analysis of the deposited data

How the results depend on the processing

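By either rule 0 of the 8 class II genes were called under every alternative. The limits are the 3 libraries in each group, the wide spread of WT TAMs, the unknown depth of TPM and the uncertain division of reads between H2-DMb1 and H2-DMb2. Differences near 0 changed sign under some settings, to -0.042 for H2-Aa with quantile normalization, to 0.015 (quantile), 0.039 (median-of-ratios) and 0.15 (macrophage index as covariate) for H2-DMb1, to 0.017 (median-of-ratios) and 0.26 (covariate) for Ciita, and under the covariate to -0.028 for March1 and 0.12 for Nlrc5. The median of all genes was -0.05, and 0.00 under either scaling. For these and other differences that changed sign, the cause was not tested.

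With each library left out in turn, the log2 difference ranged from -0.41 to 0.46 for H2-Aa, -0.29 to 0.57 for H2-Eb1, -0.17 to 0.51 for H2-DMa, -0.37 to 0.36 for H2-DMb1, -0.76 to 0.014 for H2-DMb2, -0.23 to 0.65 for H2-Oa and -0.68 to 0.58 for Ciita. It also crossed 0 for Cd74 (-0.37 to 0.17), H2-Ob (-0.90 to 0.36), Ctsd (-0.063 to 0.94), March1 (-0.11 to 0.49), March8 (-0.39 to 0.063), Cd81 (-0.20 to 0.024), Nfyb (-0.062 to 0.13), Nfyc (-0.014 to 0.12), Irf8 (-0.057 to 0.41), Il10 (-1.57 to 0.59), Nlrc5 (-0.70 to 0.45), Cd80 (-0.60 to 0.41), Cd86 (-0.66 to 0.12) and Cd40 (-0.50 to 0.12). H2-Ab1 ranged from 0.10 to 0.79.

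C5ar1 ranged from -5.63 to -4.45 with a library left out, and its adjusted p from limma passed 0.05 with the covariate (-5.32, adjusted p = 0.0474) and without C5aR-/- TAM 1 (-5.16, adjusted p = 0.0221), within a range of 0.0221 to 0.329 over the alternatives. Over all genes, the 0 calls at the adjusted threshold became 2 by eBayes without trend, 29 with the covariate and 0 to 356 with a library left out, 356 being without C5aR-/- TAM 1, and the 733 unadjusted calls became 475 at a TPM of at least 5 and 567 to 1266 with a library left out, 1266 again without C5aR-/- TAM 1. Accessory genes called unadjusted numbered 1 to 3 with a library left out, 3 without WT TAM 1 (Lgmn, Ctss and Ifng) and 2 without C5aR-/- TAM 3 (Lgmn and Ctss). Without C5aR-/- TAM 1 the single call was Jak1, lower (-1.01, unadjusted p = 0.0189, adjusted p = 0.148 from limma), in place of Lgmn. Ifng had no value at a TPM of at least 5.

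With the replicate number as a block, 0 class II genes, 1 accessory gene and 811 genes in all were called at the unadjusted threshold and 0 at the adjusted one. Deviations from the group means of same-numbered libraries correlated at 0.19, -0.01 and 0.27, and WT TAM 2 correlated best with C5aR-/- TAM 1 (0.09). The values 0.27 and 0.19 were the highest of all such pairs, and the summed macrophage markers fell with the library number in both groups. With the block the standard error went from 0.41 to 0.15 for Ctsb and from 0.41 to 0.46 for H2-DMb2. Deviations from means of 3 libraries cannot decide whether same-numbered libraries share a batch. The labels give only a number, and no pairing was assumed.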
